A study of Mus musculus with 15 samples.

Results

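The genes of the intermediate filament system were followed in cultured mouse podocytes under mechanical stretch: the cytoplasmic filament genes Vim, Des, Nes, Krt7, Krt8, Krt18 and Krt19, the nuclear lamin genes Lmna and Lmnb1, and Plec, which encodes the linker plectin. They are 10 of the 55416 genes in the count table and were chosen by name, and the transcripts of Plec and Lmna, 29 of 140789 in the transcript table, were followed as shares of each gene's output. All samples were SVI cells, a conditionally immortalised mouse podocyte line, differentiated and seeded on flexible silicone membranes, so no animal or donor differs between them. Experiment 1 held 3 unstretched samples and 6 samples under low stretch, for which the sample labels give a deflection of 5 to 6 mm and the design text a maximum of 6 mm at the membrane centre. Experiment 2 held 3 unstretched samples and 3 samples under high stretch, 7 to 8 mm by the labels and 8 mm by the design text. No further treatment and no duration are named for any group, and stretched samples were set against unstretched ones within an experiment. The design text gives alternative splicing in podocytes under a pressure load as the study's question. The labels do not say which samples were separate cultures, so the p-values measure the spread between these samples, which may be technical.

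Intermediate filaments are rope-like polymers that give cells resistance to deformation, and their composition depends on the cell type. Vimentin is the main filament protein of mesenchymal cells and of podocytes, nestin and desmin co-assemble with it, and keratins form filaments in simple epithelia. The lamins build the meshwork under the inner nuclear membrane, and plectin ties filaments to each other, to actin and to adhesion sites.

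The libraries held 261999648 to 396658285 counts in experiment 1 and 172211836 to 297641156 in experiment 2. Of the genes that define a podocyte, Synpo and Podxl averaged 475 and 148 CPM (counts scaled to library size), whereas Nphs1 was low, at 0.479 CPM, and Ptpro and Tcf21 were near 0, at 0.00723 and 0.000626 CPM. Among the markers of other kidney cells, the tubule genes Lrp2 and Cdh16 were abundant, at 617 and 389 CPM. So were the mesangial and smooth muscle genes Acta2 and Cnn1, at 4150 and 474 CPM, and the parietal gene Pax2, at 270 CPM. Unstretched replicate 3 of experiment 2 stood apart from its group, with 2.6% of its counts on mitochondrial genes against 1.15% and 1.56%. Samples also fell into runs of neighbouring codes in their descriptions, with 1 unstretched sample in each run. In experiment 1 samples of the same run deviated together across all genes (mean correlation 0.438 over 6 pairs, against -0.218 over 12 pairs from different runs). In experiment 2 this was less clear (mean 0.176 over 3 pairs, from -0.164 to 0.45, against -0.0951 over 6 pairs). Values within runs are given beside the pooled ones. Each run of experiment 1 sets 2 stretched samples against the same unstretched one, so such comparisons are not independent. The share of all genes or transcripts that moved 1 way in every run was not computed.

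The 2 genes that passed the test under both stretch protocols were Nes and Krt7, and the 250 bases upstream of their starts are shown for that reason. The sequences are from RefSeq on build GRCm38.p6 and are read 5′ to 3′ on the plus strand, which is the coding strand of both genes. Capitals mark the letters GGGCGG or its reverse complement, the GC box bound by Sp-family factors. The count table was built on mm39, so these positions serve only to place the printed bases.
Nes, chr3:87970843-87971092: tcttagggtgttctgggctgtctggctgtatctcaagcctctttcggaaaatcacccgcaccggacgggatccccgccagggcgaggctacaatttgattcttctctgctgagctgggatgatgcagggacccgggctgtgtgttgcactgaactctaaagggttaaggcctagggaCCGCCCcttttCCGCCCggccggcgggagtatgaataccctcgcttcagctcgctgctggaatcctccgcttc
Krt7, chr15:101412153-101412402: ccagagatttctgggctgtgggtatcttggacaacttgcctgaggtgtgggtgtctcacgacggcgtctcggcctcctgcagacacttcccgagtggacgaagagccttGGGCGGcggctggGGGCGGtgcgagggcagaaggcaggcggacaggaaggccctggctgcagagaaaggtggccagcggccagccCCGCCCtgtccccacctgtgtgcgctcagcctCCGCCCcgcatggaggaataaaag
The Nes window holds the GC box 2 times, 73 and 62 bases before the start, and the Krt7 window 4 times, 141, 128, 56 and 24 bases before it. On both strands, at least 1 match to GGGCGG was present in 32.7% of the 32851 promoters of the same length. Matches to GGAATG, the TEAD motif (12.6% of promoters), TGANTCA, the AP-1 motif (6.75%), and TATAAA (12.4%) were not among the letters of either window. No searched motif overlaps another in these windows, and a match is a description of letters, not a bound site. Of the 10 members, 7 had an entry in the promoter table.

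Ranked per length, in TPM (transcript abundance scaled to length and library size) summed per gene, Vim was far above the other members, at 2097 to 3173 TPM over the 15 samples. Lmna followed at 276 to 627 TPM, Plec at 70.3 to 122 TPM, Lmnb1 at 33.3 to 82.7 TPM and Nes at 6.25 to 37.0 TPM. Krt7 lay between 0.44 and 4.16 TPM and Des between 0.138 and 6.13 TPM. Within each of the 4 groups the ranges of neighbours in this order did not overlap down to Nes and Krt7. Krt7 and Des did overlap in both groups of experiment 2, where their order cannot be told from these samples. Vim made up 98.4% to 99.5% of the summed TPM of the 7 cytoplasmic filament genes in every sample, so nestin, desmin and the keratins among these 7 were together a small remainder at the RNA level.

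**Figure D1:**
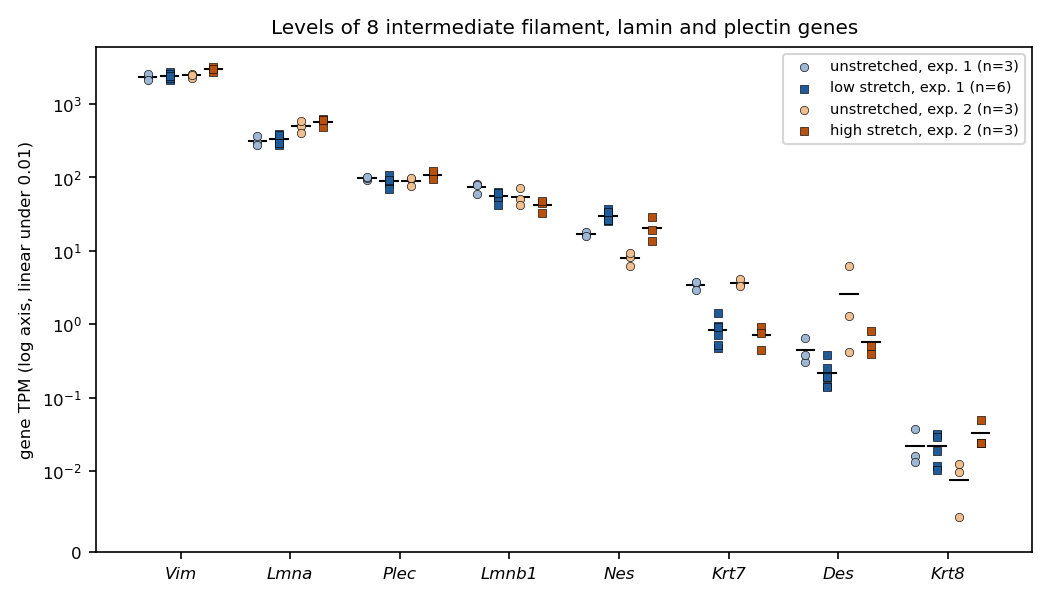
Gene TPM (log axis, linear under 0.01) of 8 members in every sample, with circles for unstretched and squares for stretched samples of experiments 1 and 2 and a black bar at each group mean. Vim lies between 2097 and 3173 TPM, and the stretched samples lie above the unstretched ones of their experiment for Nes and below them for Krt7.

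Under low stretch Nes rose and Krt7 fell, and no other member passed the test. Nes was the 1 member called higher, against 1.85% of the 21672 genes tested, and Krt7 the 1 called lower, against 3.6%, so 2 of the 7 members with enough counts to test were called where 5.45% of all genes were. The members were chosen with earlier results of these data known. Such shares, here and below, are therefore descriptions and not a test of the members as a set. Under high stretch the same 2 genes were called in the same directions, against 1.31% of 18524 genes called higher, 2.16% called lower and 3.47% called in all. The median log2 fold change of the 7 tested members was -0.02 under low stretch and 0.30 under high stretch, beside 0.01 and -0.02 over all genes tested. The 2 comparisons use separate unstretched samples. A gene was called at an adjusted p under 0.05 in edgeR's quasi-likelihood test, and all CPM values carry TMM scaling over the 15 samples.

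Nes (ENSMUSG00000004891) encodes nestin, a large filament protein first known from neural progenitors and present in mature podocytes. In the unstretched samples of experiment 1 it was at 51.7, 57.2 and 51.9 CPM, and under low stretch at 89.1 to 124 CPM with a median of 105. Every stretched sample was above every unstretched one, as for 7.81% of all genes tested. The group means were 53.6 ± 3.11 CPM (SD, n = 3) and 106 ± 16.4 CPM (SD, n = 6), a 1.96-fold increase (log2 fold change 0.97, SE 0.13, edgeR adjusted p = 0.00506). In experiment 2 the unstretched samples gave 42.1, 35.9 and 34.9 CPM and the high-stretch samples 131, 76.7 and 99.6 CPM. These groups did not overlap either, as for 9.97% of all genes tested, and their means of 37.6 ± 3.88 and 102 ± 27.2 CPM (SD, n = 3 each) differed 2.77-fold (log2 fold change 1.47, SE 0.23, edgeR adjusted p = 0.0175). Within runs of sample codes Nes was higher by 1.20, 0.92 and 0.78 on the log2 scale in experiment 1 and by 1.64, 1.09 and 1.51 in experiment 2, so it was higher in all 9 stretched samples than in the unstretched sample of their own run. The test of the difference between both stretch effects gave 0.46 (SE 0.24, edgeR adjusted p = 1), with an interval of 2 SE from -0.02 to 0.95, so a larger effect of high stretch was not shown. The high-stretch call for Nes was lost, at an unchanged direction, without unstretched replicate 1 (adjusted p = 0.0844), high-stretch replicate 1 (0.0687) or high-stretch replicate 3 (0.1).

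Nearly all Nes output was 1 coding transcript, Nes-201, at 94.4% to 99% of the gene's TPM in the 15 samples. Set against vimentin, with which nestin polymerises, Nes was at 7.23 ± 0.347 TPM per 1000 Vim TPM in unstretched and 12.5 ± 2.39 in low-stretch samples. In experiment 2 the ratio was 3.19 ± 0.472 unstretched and 6.77 ± 2.11 under high stretch (SD, n = 3 each). The ranges did not overlap in either experiment, from 6.97 to 7.62 against 9.13 to 15.7, and from 2.72 to 3.66 against 4.86 to 9.04. The ratio uses the same Nes values as the fold change above and was given no test of its own.

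Krt7 (ENSMUSG00000023039) encodes keratin 7, a type II keratin of simple and glandular epithelia. It was at 2.05, 2.24 and 1.62 CPM in the unstretched samples of experiment 1 and at 0.264 to 0.814 CPM, with a median of 0.452, under low stretch. The highest stretched sample was below the lowest unstretched one, as for 7.47% of all genes tested. Krt7 fell 4.23-fold (log2 fold change -2.08, SE 0.29, edgeR adjusted p = 0.00529). Experiment 2 gave 3.05, 3.92 and 1.79 CPM in the unstretched and 0.352, 0.83 and 0.597 CPM in the high-stretch samples. Again the groups did not overlap, as for 10.7% of all genes tested, and the level fell 4.89-fold (log2 fold change -2.29, SE 0.40, edgeR adjusted p = 0.0239). These levels rest on 473 to 741 reads in each unstretched and 76 to 358 reads in each stretched library. Within runs the log2 difference was -1.76, -2.25 and -2.40 in experiment 1 and -3.09, -2.23 and -1.58 in experiment 2, lower in all 9 stretched samples. The difference between both stretch effects was -0.23 (SE 0.51, edgeR adjusted p = 1), with an interval of 2 SE from -1.25 to 0.78.

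The Krt7 call of experiment 1 was lost without the samples of code run 2 (log2 fold change -1.96, edgeR adjusted p = 0.0691, chosen after seeing the data). That of experiment 2 was lost without unstretched replicate 1 (adjusted p = 0.0948), high-stretch replicate 1 (0.102) or high-stretch replicate 3 (0.142). In the transcript table most Krt7 output was not coding: in the unstretched samples of experiment 1 the 2 coding transcripts held means of 7.44% and 13.5% of the gene's TPM, and 2 transcripts annotated as processed and non-coding held 32.6% and 31.7%. The counts therefore describe reads of the whole locus.

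**Figure D2:**
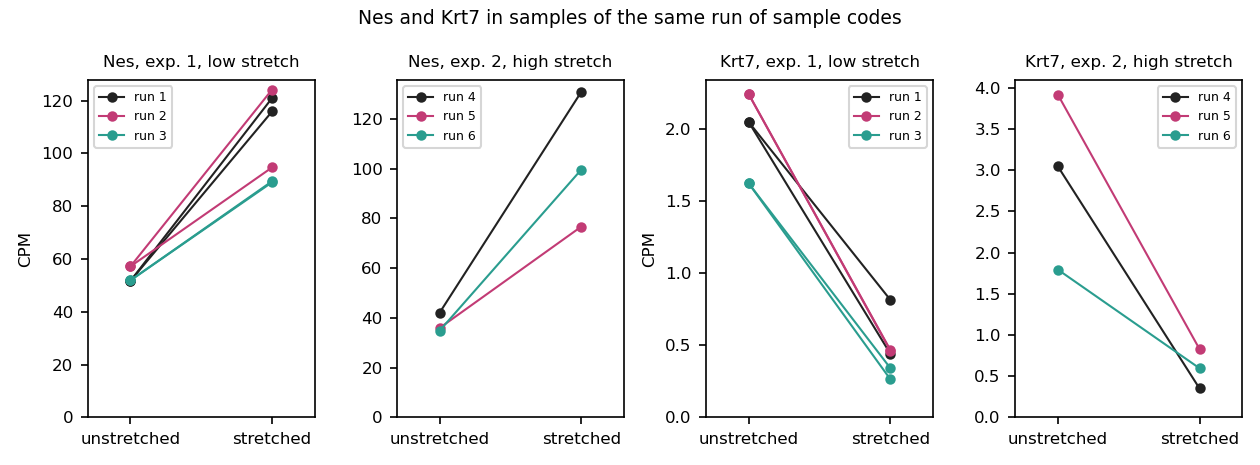
CPM of Nes and Krt7 in unstretched and stretched samples of experiments 1 and 2, each line joining a stretched sample to the unstretched sample of its run of sample codes (linear axes from 0). All 9 lines rise for Nes and all 9 fall for Krt7.

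Some markers of other cell types moved with these genes and their part in the result was not tested. The 7 tubule markers summed to 1226 to 1633 CPM in unstretched and 636 to 1013 CPM in low-stretch samples of experiment 1, and to 1290 to 1406 against 511 to 593 CPM in experiment 2. These sums did not overlap between stretched and unstretched samples. Lrp2 and Cdh16, at means of 617 and 389 CPM over the 15 samples, made up nearly all of them, and Cubn followed at 4.59 CPM. The tested tubule markers did not all fall: their log2 fold changes ran from -0.93 to 0.69 under low stretch, with a median of -0.19. Under high stretch they ran from -2.09 to 0.41, with a median of -0.07. Of the 4 that could be tested, Cdh16, a cadherin of renal epithelium, fell in both experiments (log2 fold change -0.93, edgeR adjusted p = 0.0343, and -2.09, adjusted p = 0.00592), and Lrp2, the endocytic receptor megalin, fell in experiment 1 (-0.65, adjusted p = 0.0227). The 5 leukocyte markers summed to 23.5 to 26.2 against 6.72 to 13.1 CPM, and to 23.8 to 26.2 against 5.9 to 9.87 CPM, most of it Csf1r, while Ptprc, Adgre1 and Cd3e, which define leukocytes, had 100, 3 and 2 reads over all 15 libraries. Csf1r, the receptor of colony-stimulating factor 1, fell in both (log2 fold change -1.51 and -2.02, edgeR adjusted p = 0.00739 and 0.00808). Cd68 was not called, at -0.12 under low stretch (edgeR adjusted p = 0.617) and 0.86 under high stretch (adjusted p = 0.165). The highest of the 3 leukocyte markers tested under low stretch was at 0.91. The podocyte transcription factor gene Wt1 fell under high stretch (-2.36, adjusted p = 0.0311), and Cd44, a marker of activated parietal cells, rose there (1.48, adjusted p = 0.025), among 7 and 6 podocyte and 5 and 4 parietal markers tested. Under low stretch both moved the same way without being called (log2 fold change -1.16, edgeR adjusted p = 0.0688, and 0.87, adjusted p = 0.106). The parietal markers tested under high stretch had a median of -0.18 and a lowest value of -0.87. The podocyte markers tested there had a median of -0.32 and a highest value of 0.01. In experiment 1 Pdgfrb, a mesangial receptor, fell, and so did Ehd3, an endothelial marker (log2 fold change -0.56 and -0.48, edgeR adjusted p = 0.0199 and 0.0147), 1 of 5 and 1 of 2 markers tested. Pdgfrb was the lowest of the mesangial and smooth muscle markers tested under low stretch, whose median was 0.49 and highest value 0.86. Under high stretch these ran from -0.56 to 0.98, with a median of 0.39. Acta2 (0.86 and 0.98) and Cnn1 (0.49 and 0.39) were higher in both experiments without being called. The 5 endothelial markers summed to 44.7 to 46.9 against 26.8 to 35.5 CPM in experiment 1 and to 70.2 to 82.6 against 42.4 to 54.7 CPM in experiment 2, without overlap in either. Ehd3 made up nearly all of these sums, at means of 74.6 and 49.5 CPM in experiment 2, where it was not called (adjusted p = 0.133), while Cdh5, Emcn and Kdr had 29, 24 and 25 reads over all 15 libraries. Pecam1, the other endothelial marker tested, went the other way without being called (log2 fold change 0.70, edgeR adjusted p = 0.308, and 1.01, adjusted p = 0.262). The 6 mesangial and smooth muscle markers, led by Acta2 and Cnn1, summed to 1458 to 2281 against 1787 to 4345 CPM in experiment 1 and to 2998 to 8185 against 7149 to 11601 CPM in experiment 2. The 5 parietal markers, led by Pax2 and Pax8, summed to 434 to 507 against 473 to 767 CPM, and to 558 to 653 against 615 to 651 CPM. Leaving out 1 library ended the calls of Wt1 and Cd44 (without unstretched replicate 1 or high-stretch replicate 1 or 3, for Wt1 also 2, adjusted p from 0.0693 to 0.162), those of Cdh16 and Lrp2 under low stretch (5 and 4 of 9 libraries, adjusted p from 0.0504 to 0.191), that of Pdgfrb there without unstretched replicate 1 or 3 (0.0734 and 0.12), that of Ehd3 without any 1 of the 3 unstretched replicates (0.0508 to 0.0798), and those of Cdh16 and Csf1r under high stretch only without high-stretch replicate 3 (0.0619 and 0.0736). In bulk RNA, fewer cells of a type and less RNA per cell cannot be told apart.

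Vim, the gene of the main filament protein, was at 1798, 1992 and 1665 CPM without stretch and at 1790 to 2550 CPM, median 2014, under low stretch. These ranges overlapped, and the log2 fold change of 0.19 (SE 0.13, edgeR adjusted p = 0.389) did not pass the test. In experiment 2 Vim was at 3100, 3032 and 2317 CPM unstretched and 3524, 3752 and 3959 CPM under high stretch. The high-stretch samples all lay above the unstretched ones, the same 9.97% of genes being the background, but the log2 fold change of 0.43 (SE 0.19, edgeR adjusted p = 0.336) was not called. Within runs the log2 difference was 0.08, 0.28 and 0.22 in experiment 1 and 0.19, 0.31 and 0.77 in experiment 2, the last in the run of the unstretched sample that stood apart. The intervals of 2 SE, from -0.06 to 0.45 and from 0.06 to 0.80, hold no 2-fold change.

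Des encodes desmin, a muscle-type filament protein that podocytes can express on injury. It was scarce, at 0.227, 0.471 and 0.294 CPM unstretched and 0.103 to 0.276 CPM, median 0.159, under low stretch. In experiment 2 the unstretched samples spread over 4.425, 1.903 and 0.3239 CPM, and the high-stretch samples were at 0.449, 0.986 and 0.520 CPM. The groups overlapped in both experiments, and neither log2 fold change passed the test (-0.93, SE 0.35, edgeR adjusted p = 0.139, and -1.74, SE 0.78, adjusted p = 0.359). The unstretched samples of experiment 2 differed widely, and within its runs the difference was -3.28, -0.94 and 0.67, against -0.50, -0.84 and -1.41 in experiment 1. Without unstretched replicate 3 Des was called lower under high stretch (log2 fold change -2.26, edgeR adjusted p = 0.00757), whereas without unstretched replicate 1, the highest sample, the value was -0.75 (adjusted p = 0.931).

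The simple-epithelial keratins Krt8, Krt18 and Krt19 were close to absent from the counts, with 97, 12 and 2 reads in all 15 libraries together, and were too low to test within either experiment. Krt8, the type II partner of keratin 18, was at 0.0118, 0.0363 and 0.00957 CPM unstretched and 0.0104 to 0.0323 CPM under low stretch. In experiment 2 it gave 3 reads in each unstretched library and 10, 12 and 8 reads in the high-stretch libraries. Krt18 had 0 reads in each unstretched library of experiment 1, which at 3 counts allows a level of up to 0.0102 to 0.0108 CPM, and between 0 and 3 reads in the others. Krt19 had 1 read in each of 2 libraries of experiment 1 and 0 in the others. Such limits cover counting error only. Of the 4 keratin genes among the members Krt7 was thus the most abundant, both per read and per length. Krt10, a keratin gene outside the members, averaged 2.65 CPM over the 15 samples, against 1.28 CPM for Krt7.

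**Figure D3:**
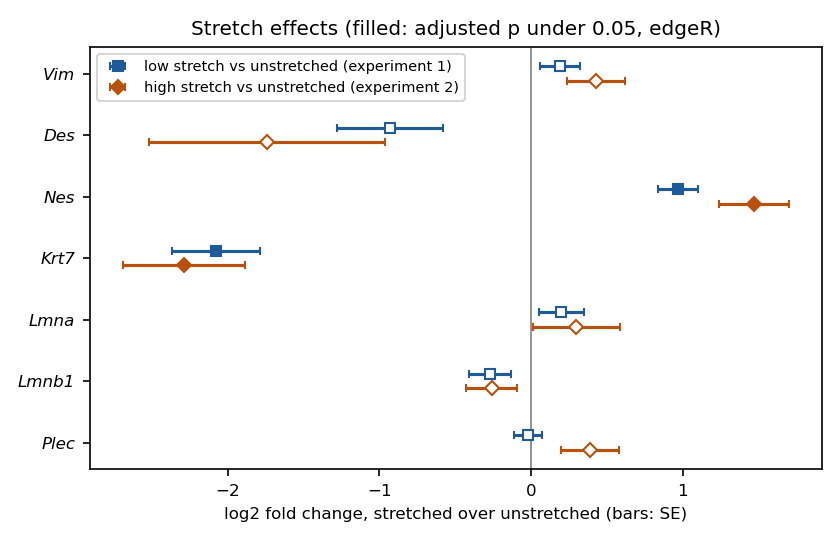
Log2 fold change of stretched over unstretched samples for the 7 tested members, with bars of 1 SE, squares for low stretch in experiment 1 (3 against 6 samples) and diamonds for high stretch in experiment 2 (3 against 3). Filled symbols, for Nes and Krt7, passed an edgeR adjusted p of 0.05.

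Neither lamin gene passed the test. Lmna, which encodes lamins A and C, was at 367, 440 and 337 CPM without and at 359 to 544 CPM, median 415, with low stretch. Experiment 2 gave 960, 1175 and 559 CPM unstretched and 819, 1305 and 1148 CPM under high stretch. The ranges overlapped in both (log2 fold change 0.20, SE 0.15, edgeR adjusted p = 0.461, and 0.30, SE 0.29, adjusted p = 0.788), and without unstretched replicate 3 of experiment 2, its lowest sample, the second value was 0.08, against 0.55 without unstretched replicate 2, its highest, and 0.46 without high-stretch replicate 1. Lmnb1, the gene of the farnesylated lamin B1, was at 81.9, 116 and 108 CPM unstretched and 65.5 to 102 CPM, median 86.0, under low stretch. In experiment 2 it was at 116, 105 and 117 CPM unstretched and 89.0, 83.4 and 108 CPM under high stretch. The Lmnb1 log2 fold changes of -0.27 (SE 0.14, edgeR adjusted p = 0.287) and -0.26 (SE 0.17, adjusted p = 0.614) were not called. Within runs Lmnb1 was lower by -0.19, -0.27 and -0.32 in experiment 1 and by -0.38, -0.33 and -0.12 in experiment 2. Lmna was higher by 0.18, 0.28 and 0.13 within the runs of experiment 1, and differed by -0.23, 0.15 and 1.04 in those of experiment 2, the last in the run of the unstretched sample that stood apart.

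With the code run as a term of the fit, 5 of the 7 tested members were called in experiment 1, where 28.2% of all genes were. Beside Nes and Krt7 these were Lmna (log2 fold change 0.19, edgeR adjusted p = 0.0271), Lmnb1 (-0.26, adjusted p = 0.0215) and Des (-0.95, adjusted p = 0.00382), whereas Vim (0.19, adjusted p = 0.0892) and Plec (-0.02, adjusted p = 0.88) were not. In experiment 2 the same fit called 2 members, Nes and Krt7, where 8.35% of all genes were called.

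Lamins A and C come from the same gene through alternative ends of the message. Their coding sequences share the first 1705 bases in GENCODE M21. The branch point is shown because it is what separates the 2 products in the transcript table, with the last 24 shared bases in lower case and the bases found in only 1 of the products in capitals. The lamin A line stops after 30 of its own bases, the lamin C line runs to its stop codon.
Lmna-201, lamin A: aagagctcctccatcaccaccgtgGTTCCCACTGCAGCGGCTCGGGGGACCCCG
Lmna-203, lamin C: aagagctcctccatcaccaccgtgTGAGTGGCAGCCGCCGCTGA
From the branch point on lamin A has 290 more coding bases and lamin C 17, stop codons not counted. Lamin A ends with the 4 codons in capitals below, the CaaX box that is farnesylated and then removed when prelamin A matures, and lamin C has no such end.
Lmna-201, end: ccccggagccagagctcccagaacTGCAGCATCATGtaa

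No shift in the balance of these ends passed its test. The lamin A transcript Lmna-201 held 40.9%, 36.4% and 41.8% of Lmna TPM in unstretched and 39.2% to 45.1% in low-stretch samples. The lamin C transcript Lmna-203 held 54.9%, 59.3% and 54.0% against 51.0% to 57.8%. In experiment 2 Lmna-201 was at 33.7%, 28.7% and 38.0% unstretched and 38.3%, 33.3% and 34.9% under high stretch, and Lmna-203 at 63.0%, 67.5% and 58.3% against 59.5%, 64.9% and 62.8%. All of these ranges overlapped. Within runs the Lmna-201 share differed by -0.97, 3.41 and 2.22 percentage points in experiment 1 and by 4.65, 4.58 and -3.05 in experiment 2, in both directions. The lamin A to lamin C ratio was 0.711 ± 0.0849 (SD, n = 3) and 0.752 ± 0.081 (SD, n = 6) in experiment 1, an exact two-sided permutation p of 0.5 (adjusted 0.667 over the 4 ratios tested). In experiment 2 it was 0.537 ± 0.113 and 0.571 ± 0.0667 (SD, n = 3 each), an exact permutation p of 0.7 (adjusted 0.7).

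The balance of A-type to B-type lamins, often read as a measure of nuclear stiffness, refers to protein, which was not measured here. At the RNA level the ratio of Lmna to Lmnb1 TPM was 4.41 ± 0.83 (SD, n = 3) without and 6.05 ± 1.11 (SD, n = 6) with low stretch. The difference of 0.45 on the log2 scale gave an exact two-sided permutation p of 0.0595 (adjusted 0.238). In experiment 2 the ratio was 9.90 ± 4.13 and 14.2 ± 4.15 (SD, n = 3 each), a log2 difference of 0.57 with an exact permutation p of 0.4 (adjusted 0.667). The smallest p these designs allow is 0.0238 for 3 against 6 samples and 0.1 for 3 against 3, both before adjustment over the 4 ratios. Within runs the log2 ratio of Lmna to Lmnb1 was higher by 0.37, 0.54 and 0.46 in experiment 1 and by 0.11, 0.44 and 1.18 in experiment 2, in all 9 stretched samples against the unstretched sample of their run. The largest value, 1.18, was in the run of the unstretched sample that stood apart. In experiment 1 the stretched samples of a run share its unstretched sample, so the 9 are not independent. The permutation test does not use the runs, and these within-run values were given no test of their own.

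Plec, the gene of the cytolinker plectin, was at 727, 778 and 800 CPM without and at 648 to 860 CPM, median 758, with low stretch (log2 fold change -0.02, SE 0.09, edgeR adjusted p = 0.922). The interval of 2 SE from -0.21 to 0.17 bounds the low-stretch difference tightly. In experiment 2 Plec was at 1218, 1077 and 898 CPM unstretched and at 1231, 1349 and 1561 CPM under high stretch. In TPM these groups overlapped, from 76.4 to 97.1 against 96.4 to 122. In CPM they did not, as for 20.6% of all genes tested in either direction, yet the log2 fold change of 0.39 (SE 0.19, edgeR adjusted p = 0.399) was not called. Within runs the differences of 0.02, 0.33 and 0.80 were uneven, the last in the run of the unstretched sample that stood apart. The test of the difference between both stretch effects gave 0.39 (SE 0.19, edgeR adjusted p = 1).

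Plectin has alternative first exons, each with a start codon of its own, that are known to send the protein to different structures. Of 22 annotated Plec transcripts 3 carried at least 5% of the gene's TPM in some group, all coding and each with a different first exon, and the others together held 1.11% to 2.49%. The coding parts of these first exons are shown because they hold all the coding bases that differ between the 3 products, with the start codon in capitals.
Plec-206: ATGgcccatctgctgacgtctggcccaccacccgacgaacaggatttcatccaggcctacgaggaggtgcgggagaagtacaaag
Plec-201: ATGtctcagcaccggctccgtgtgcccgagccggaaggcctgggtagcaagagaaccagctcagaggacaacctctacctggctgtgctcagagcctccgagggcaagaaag
Plec-204: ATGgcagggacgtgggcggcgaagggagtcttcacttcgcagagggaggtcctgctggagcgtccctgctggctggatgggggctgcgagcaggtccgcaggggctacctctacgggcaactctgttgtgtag
From there on the 3 coding sequences have their last 13519 bases in common. Reads from these common bases cannot tell the 3 apart, so within the coding sequence the shares below rest on the 5′ end. Read coverage of that end was not examined. On GRCm38 the Plec-201 start lies 33787 bases and the Plec-204 start 31288 bases downstream of the Plec-206 start, so the 3 messages start from separate positions.

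Plec-206 held the largest share in every sample, at 59.4%, 57.6% and 55.0% without and 57.2% to 65.6%, median 63.3%, with low stretch. Its share in experiment 2 was 57.8%, 61.9% and 63.6% unstretched and 65.8%, 67.1% and 67.1% under high stretch. Plec-201 held 32.1%, 35.8% and 36.4% against 28.4% to 34.3%, median 29.5%, in experiment 1, and 36.0%, 32.0% and 28.8% against 28.0%, 26.8% and 27.2% in experiment 2. Both transcripts overlapped between the groups of experiment 1, and in experiment 2 every high-stretch sample was above every unstretched one for Plec-206 and below every one for Plec-201. Of the 23408 transcripts tested there, 7.7% had shares in every high-stretch sample above those of every unstretched one and 6.84% below. Plec-206 and Plec-201 together hold most of the gene's TPM, so a higher share of 1 goes with a lower share of the other. Their moves are therefore 1 observation and not 2. Within runs of sample codes the Plec-206 share was higher by 5.35, 5.86 and 2.73 percentage points in experiment 1 and by 8.00, 5.27 and 3.48 in experiment 2. The Plec-201 share differed by -3.47, -6.40 and -2.53 percentage points in the runs of experiment 1 and by -8.05, -5.18 and -1.67 in those of experiment 2, so each of the 9 stretched samples was above the unstretched sample of its run for Plec-206 and below it for Plec-201. These are not 9 independent comparisons, since stretched samples of a run in experiment 1 share its unstretched sample. How many of all transcripts moved 1 way in every run was not computed. Plec-204 was minor throughout, at means of 5.97% and 5.67% in experiment 1 and 5.28% and 4.57% in experiment 2. The mean of Plec-206 was 57.4% without and 62.0% with low stretch, and 61.1% and 66.7% in experiment 2, while that of Plec-201 was 34.8% and 30.6%, and 32.3% and 27.3%. Neither passed the test across all transcripts (limma, with each transcript set against its gene's other transcripts on the log2 scale): the Plec-206 difference was 0.28 (SE 0.13, adjusted p = 0.508) and 0.35 (SE 0.14, adjusted p = 0.609), and the difference for Plec-201 was -0.27 (SE 0.12, adjusted p = 0.485) and -0.34 (SE 0.15, adjusted p = 0.651). That test called 0.0144% of 27720 transcripts under low stretch with 10% at an unadjusted p under 0.05, and 0 of 23408 under high stretch, with 1881 (8.04%) at an unadjusted p under 0.05. No Plec or Lmna transcript was called in either. In transcript levels, Plec-201 averaged 33.99 TPM without and 27.31 TPM with low stretch and Plec-206 55.92 and 55.18 TPM. In experiment 2 Plec-206 averaged 54.62 TPM unstretched and 73.08 TPM under high stretch, while Plec-201 averaged 28.87 and 29.96 TPM.

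**Figure D4:**
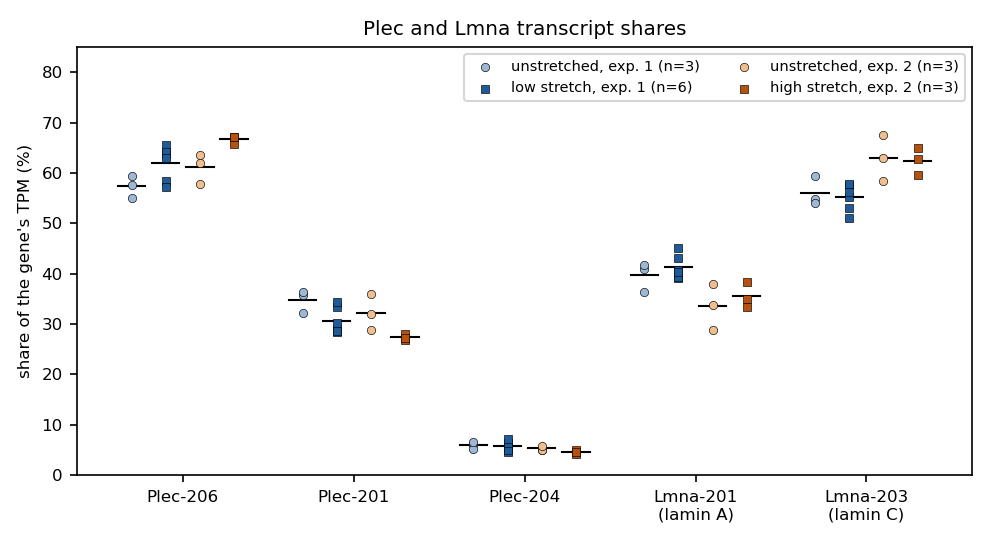
Share of the gene's TPM (%, linear axis from 0) held by 3 Plec and 2 Lmna transcripts in every sample, with black bars at group means. Plec-206 is highest and Plec-201 lowest of their 4 groups under high stretch (means 66.7% and 27.3%), and the lamin A and lamin C shares overlap between stretched and unstretched samples.

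The genes that work with these filaments were read against the share of all genes called, 5.45% under low and 3.47% under high stretch. Of 22 other filament genes 8 and 7 had enough counts to test, and 0 were called in either experiment, the most abundant being Synm, the filament protein synemin, at 37.6 CPM in unstretched samples of experiment 1, and Krt10 at 2.71 CPM. Of 22 genes of the lamina and nuclear envelope, led by Tmpo and Banf1 (399 and 87.1 CPM), 0 were called under low stretch. Under high stretch 1 of these was called lower: Syne4, an outer nuclear membrane protein that binds kinesin, at 0.633 CPM unstretched and 0.208 CPM stretched (log2 fold change -1.58, SE 0.28, edgeR adjusted p = 0.024). The median of that list was -0.01 in both experiments. Of the other plakins, led by Macf1 and Dst (437 and 340 CPM), 5 and 3 were tested and 0 called. Of 12 genes of hemidesmosomes and desmosomes, led by Cd151 and Perp (407 and 306 CPM), 10 were tested in each experiment, with a median of 0.25 and 0.34, and 2 were called higher under high stretch. These were Itgb4, the integrin subunit that plectin binds, at 0.126 CPM unstretched and 0.357 CPM stretched (log2 fold change 1.53, SE 0.29, edgeR adjusted p = 0.0328), and the plaque protein gene Pkp1, at 0.0719 and 0.582 CPM (3.11, SE 0.51, adjusted p = 0.0207). Both were below 1 CPM in every sample. Each of these 3 calls was lost without unstretched replicate 1, high-stretch replicate 1 or high-stretch replicate 3, and those of Itgb4 and Syne4 also without high-stretch replicate 2 (adjusted p from 0.0864 to 0.172). With the code run as a term, 2 other filament genes, 5 envelope genes, 1 plakin and 4 junction genes were called in experiment 1, and 2, 1, 0 and 3 in experiment 2, against the backgrounds of 28.2% and 8.35% given above.

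The unstretched samples of both experiments differed in 62.5% of 20707 genes tested (29.7% higher and 32.7% lower in experiment 2), and 4 of the 7 tested members were among them. Relative to experiment 1, Vim was higher by 0.61, Des by 2.72 and Lmna by 1.22 on the log2 CPM scale and Nes lower by -0.53 (edgeR adjusted p = 0.0254, 0.0169, 0.0072 and 0.0219). On the TPM scale Vim was at means of 2329 and 2463, Lmna at 319 and 498, and Nes at 16.8 and 7.88, while Plec, at 769 and 1064 CPM, was at 97.6 and 89.4 TPM, so its direction turned with the scale. Without unstretched replicate 1 or 3 of experiment 1, or replicate 1 of experiment 2, 1 member was called, and without replicate 3 of experiment 2, 6 were. Stretch amplitude and experiment are the same split of the samples and cannot be told apart.

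No member's stretch effect differed between the experiments by the test of the difference, in which 8 members could be tested and edgeR called 0 of 22015 genes, 547 (2.48%) having an unadjusted p under 0.05. DESeq2 also called 0 of the members. The differences ranged from -0.86 for Des (SE 0.84) to 1.52 for Krt8 (SE 0.82), both with an edgeR adjusted p of 1.

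Profiles over the 15 samples, as deviations of log2 CPM from the mean of the experiment, set each member beside genes of like course. Groups, runs and depth are shared by these points, so the correlations are descriptions. The closest to Nes were Jph1 (Pearson r 0.973), St13 (0.972) and Gm8773 (0.966), and the closest to Krt7 were Upk3b (0.978), a uroplakin of urothelium and mesothelium, Pcp4l1 (0.97) and Gstm2 (0.969). Vim ran closest to Tpm3 (0.956), a tropomyosin gene, Rps27a (0.954) and Pabpc4 (0.953), and Lmna to Samm50 (0.987), Nol6 (0.984) and Mapkapk2 (0.983). Lmnb1 ran closest to Arhgap19 (0.947), Cdca2 (0.938), a gene of the cell division cycle, and Gm10282 (0.938), and Plec to Polr2a (0.868), the largest subunit of RNA polymerase II, Tmem184b (0.85) and Cdc42bpb (0.83). The closest to Des were B230206L02Rik (0.919), Cavin1 (0.886) and Cby1 (0.876), and to Krt8, at its few reads, Rin1 (0.899), Mob3a (0.895) and Yrdc (0.875). Among the members the strongest were Nes with Krt7 (-0.856) and Vim with Lmna (0.816).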

How the data were processed

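RNA of 15 samples (poly(A) libraries from a TruSeq stranded mRNA kit, paired reads, per the labels' protocols) was read as 2 deposited tables. The first holds raw gene counts by Ensembl ID, deposited by the authors as whole numbers. The second holds TPM per transcript, deposited by the authors. The submitters' processing notes name STAR 2.7.5c, featureCounts, Subread 2.0.0, DESeq2 1.38.3, Salmon 1.9.0 and build mm39; the strand setting of the counting is not given in the sources used here. GENCODE M21 symbols matched 52135 of 55416 genes and 137189 of 140789 transcripts by ID. Krt7 overlaps the antisense gene Gm671, Des overlaps Gm15179 and Plec overlaps Parp10, so a share of their reads may be misassigned.

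Members and lists were chosen with earlier results of these data known. Genes were tested per experiment with edgeR 4.0.16 (R 4.3.3; filterByExpr, TMM, quasi-likelihood, Benjamini-Hochberg over all genes tested, threshold 0.05). The steps were tested on simulated data. Transcript usage was tested with limma 3.58.1 on log2((TPM + 0.1)/(rest of the gene + 0.1)). It covered transcripts holding 0.05 to 0.95 of genes of at least 1 TPM. Since it is a log2 ratio with a pseudocount, changes of low transcripts can be understated or change sign. Under low stretch the mean share of Krt7-202 fell from 14.8% to 9.5%, yet its log2 ratio change was 0.14. Ratios used exact two-sided permutation, adjusted over the 4 that could be computed. A Krt8 to Krt18 ratio could not be computed because Krt18 was listed at 0. The text names all members, the called genes of each list (at most 6) with its 2 most abundant, the 3 profiles nearest each member, and Plec and Lmna transcripts with a share of at least 0.05. Within-run differences use log2 CPM with a prior count of 2. Alternatives were DESeq2 1.42.0, RLE size factors, other filters and pseudocounts, blocks, all 15 samples in one fit, and leaving out samples. Leaving out code run 2 was chosen after seeing the data. In experiment 1 same-numbered samples did not deviate together (correlations -0.44 to 0.365), so replicate numbers were not used as pairs in the main tests. In experiment 2 replicate numbers and code runs are the same pairs (correlations -0.164 to 0.45, mean 0.176). Its within-run values and its blocks therefore rest on pairs that deviated together only weakly. One marker gene is not reported here.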

Additional observations from a re-analysis of the deposited data

Results flagged for a closer look

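In the low-stretch group of 6 samples, 44 values were examined for a sample far from the other 5, and 5 had one; chance flags about 1 in 20 groups. Krt7 in low-stretch replicate 2 was at 0.814 CPM, the next highest sample being at 0.467 CPM and the lowest at 0.264 CPM; without it the Krt7 log2 fold change was -2.32 (edgeR adjusted p = 0.00438). Krt19 was at 0.00359 CPM in low-stretch replicate 4, which is 1 read, and at 0 in the other 5. Among marker genes, Ehd3 was at 26.6 CPM in low-stretch replicate 1 (next 32.8 CPM), Pecam1 at 0.189 CPM in the same sample (next 0.1 CPM), and Cd68 at 0.911 CPM in low-stretch replicate 5 (next 1.07 CPM).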

How the results depend on the processing

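Groups held 3 to 6 samples with raw totals of 172211836 to 396658285 counts, and Krt8, Krt18 and Krt19 had too few reads at this depth to test in either stretch comparison. Nes and Krt7 kept their directions in every alternative run for both stretch comparisons. Low-stretch calls moved from 1181 genes to 2694 with DESeq2, 6106 with the code run block, 640 with all 15 samples in one fit, 190 without code run 2, and 220 to 1630 leaving out a sample; the members called were 5 with the code run block, 1 without code run 2 and 2 leaving out any sample. High-stretch calls moved from 643 genes to 1321 with DESeq2, 1050 with no filter on low counts, 414 at a mean count of at least 100, 1546 with the code run block, 1488 with all 15 samples in one fit and 14 to 1421 leaving out a sample; the members called ran from 0 to 3, 0 without unstretched replicate 1, high-stretch replicate 1 or high-stretch replicate 3. In the baseline comparison leaving out a sample gave 1 to 6 members. The cause of these shifts was not tested.

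With replicate numbers as a block, 490 genes were called under low stretch, where the block uses 3 of the 6 stretched samples. Under high stretch 1546 were called, in the same fit as the code run block, since both pair the same samples there. Nes was called in both experiments (1.04, edgeR adjusted p = 0.02, and 1.43, adjusted p = 6.97e-06). Krt7 was too (-1.82, edgeR adjusted p = 0.0302, and -2.28, adjusted p = 8.64e-08). In experiment 2 this fit leaves few samples beyond the terms it estimates. Its small p-values therefore rest mainly on spread shared across all genes and not on the spread between these pairs. Under the replicate block the lamin A to lamin C ratio of experiment 1 was -0.02 and the Lmna-203 usage value 0.04.

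Transcripts called under low stretch went from 4 to 37 with the code run block, 91 with no filter on low values, 1 with a pseudocount of 0.01 TPM, 75 with 1 TPM, 0 with the replicate block and 1 to 8 leaving out a sample; under high stretch from 0 to 242 with all 15 samples in one fit, 7 with no filter, 3 with a pseudocount of 1 TPM and 0 to 10 leaving out a sample. Plec and Lmna transcripts called stayed at 0 in every alternative run.

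Values near 0 changed sign. Plec under low stretch was 0.00 to 0.03 without unstretched replicate 2 or 3, low-stretch replicate 3 or code run 2 (-0.06 at the lowest). The difference between stretch effects ranged from -1.32 to 0.15 for Des, the latter without unstretched replicate 1 of experiment 2, and from -0.54 to 0.04 for Krt7, at 0.01, 0.04 and 0.04 without low-stretch replicate 2, unstretched replicate 2 or high-stretch replicate 1 of experiment 2. Lmnb1 at baseline was -0.00 at a mean count of at least 100 and -0.01 to 0.23 leaving out a sample. Leaving out a sample moved the log2 difference in the lamin A to lamin C ratio from -0.02 to 0.15 in experiment 1 and from -0.05 to 0.25 in experiment 2, and that in Lmna to Lmnb1 from 0.30 to 0.58 and from 0.22 to 0.87. It moved Lmna-201 usage from -0.01 to 0.16 and from -0.02 to 0.28, and Lmna-203 usage from -0.12 to 0.04 and from -0.18 to 0.11, with 0.05 without high-stretch replicate 1.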

Other observations

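A minor Vim transcript, noticed after its values were seen, fell outside the usage test because its mean share was under 5%. Vim-204, annotated as a retained intron, held 2.7%, 4.22% and 2.98% of Vim TPM in the unstretched samples of experiment 1 and 0.917% to 2.24% under low stretch. In experiment 2 it held 5.96%, 9.06% and 3.62% unstretched and 0.445%, 0.643% and 2.07% under high stretch. Fitted with no filter on low values, limma gave log2 ratio changes of -1.26 (SE 0.33, adjusted p = 0.226) and -2.86 (SE 0.66, adjusted p = 0.297), and neither was called. The other retained-intron transcript of the gene, Vim-203, held means of 26.9% and 28% in experiment 1 and 27.1% and 28.1% in experiment 2, and the coding transcript Vim-201 held 62.2% and 63.1%, and 56.2% and 63.4%.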
